A study of Mus musculus with 4 samples.

Results

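The FoxO transcription factors and the regulators of the PI3K-mTOR pathway that act around them were followed in bone marrow LSK cells that had lost Meis1. The set held every non-control probe on the microarray named for Foxo1, Foxo3, Foxo4, Akt1, Inpp5d, Tsc1, Tsc2 or Mtor. This gave 14 probes of 8 genes, among 41174 non-control probes with 28095 names. Of these, 10 probes passed the filter on dim probes and were tested together with all 22007 probes that passed it, and 4 did not pass. The filter required both pools of either genotype to give a signal well above background, so a probe could pass through a single genotype. Each of the 10 member probes reached that level on at least 3 arrays.

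LSK cells (Lin-Sca-1+c-Kit+) are the fraction of mouse bone marrow that contains the hematopoietic stem cells and multipotent progenitors, and Meis1 is a homeodomain transcription factor expressed in them. The Meis1-deficient cells came from mice that were Mx1-Cre+ Meis1 fl/fl, and the control cells from Cre-negative mice that were Meis1 fl/fl, both on a C57BL/6J background. Exon 8 of Meis1, which encodes the homeodomain, was flanked by loxP sites in both groups, and mice aged 4 to 8 weeks received poly(I:C) at 1.5 ug/g in 4 injections, with LSK cells sorted 1 week later. The labels and methods give either poly(I:C) or a sham treatment for the controls, so a response to poly(I:C) and the loss of Meis1 cannot be told apart where the control treatment was sham. Each genotype was represented by 2 pools of 6 mice, each pool on 1 single-colour array. The Mx1 promoter responds to interferon and drives Cre in hematopoietic cells and in other tissues. Replicate 1 of both genotypes shared a slide (slide 1), as did replicate 2 of both (slide 2). With 2 pools per genotype the p-values measure only the spread between pools, which limma moderates with that of all tested probes. A change in RNA per cell cannot be told apart from a change in the kinds of cell in the sort.

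Growth factor receptors activate PI3K, whose lipid product recruits Akt to the membrane. Akt phosphorylates the FoxO proteins, which then leave the nucleus, and it inhibits the TSC1-TSC2 complex, which releases the mTOR kinase to drive translation and growth. In hematopoietic stem cells FoxO factors are known for maintaining quiescence and resistance to oxidative stress, and loss of Tsc1 is known to push these cells out of quiescence. The phosphorylation steps do not appear in RNA levels, so the arrays measured the transcripts of these regulators and not the activity of the pathway.

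On the arrays, 49.2 to 57.4% of probes were well above background, and the second Meis1-deficient array was the dimmest, with a 75th percentile signal of 90.3 against 147 to 154 on the other 3. The LSK markers Kit, Ly6a, Cd34, Slamf1, Gata2, Tal1 and Lmo2 were each well above background on all 4 arrays. Both tested Meis1 probes were lower on the Meis1-deficient array of each slide. At A_52_P670612 the log2 values were 0.25 and 0.22 in the Meis1-deficient pools and 1.02 and 1.45 in the controls, and at A_52_P26195 they were -2.46 and -3.54 against -1.55 and -1.06, where the value of -3.54 was not well above background. Whether either probe lies in the deleted exon was not determined. Here and below a log2 value is the signal relative to the 75th percentile of its own array, so it can be compared between arrays for 1 probe and not between probes.

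The loss of Meis1 left no member probe past the criteria of the comparison, an unadjusted p under 0.01 and a difference of more than 2-fold. The count was 0 of 10, and 0.736% of all tested probes met those criteria. It was also 0 of 10 with the slide as a block, against 1.99% of all tested probes, and with the methods' t-test, against 0.136%. Without the block limma called no probe of any gene at an adjusted p under 0.05 (0% of 22007, with 2.81% at an unadjusted p under 0.05). With the block it called 50 probes, or 0.227%, and none was a member probe. All 10 differences lay below 0, by -0.01 to -1.22 on the log2 scale, where 43.7% of all tested probes did, but 2 of them (Foxo1 A_51_P138044 and Tsc2) lay above 0 when the array median was subtracted, 1 (Tsc1 A_52_P19245) with quantile normalization and 2 (Akt1 A_52_P418014 and Tsc1 A_52_P19245) with normexp background correction. Their median was -0.24, and the median of all tested probes was 0.08. The 10 are not independent readings, since Foxo1, Akt1 and Tsc1 each gave a pair of them and all 10 were compared with the same pools. Only 2 of the 10, Tsc1 A_52_P411305 and Mtor A_51_P282179, had both Meis1-deficient values below both control values, against 10.9% of all tested probes, and 5 of 10 were lower on both slides, against 21% of all tested probes.

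**Figure D1:**
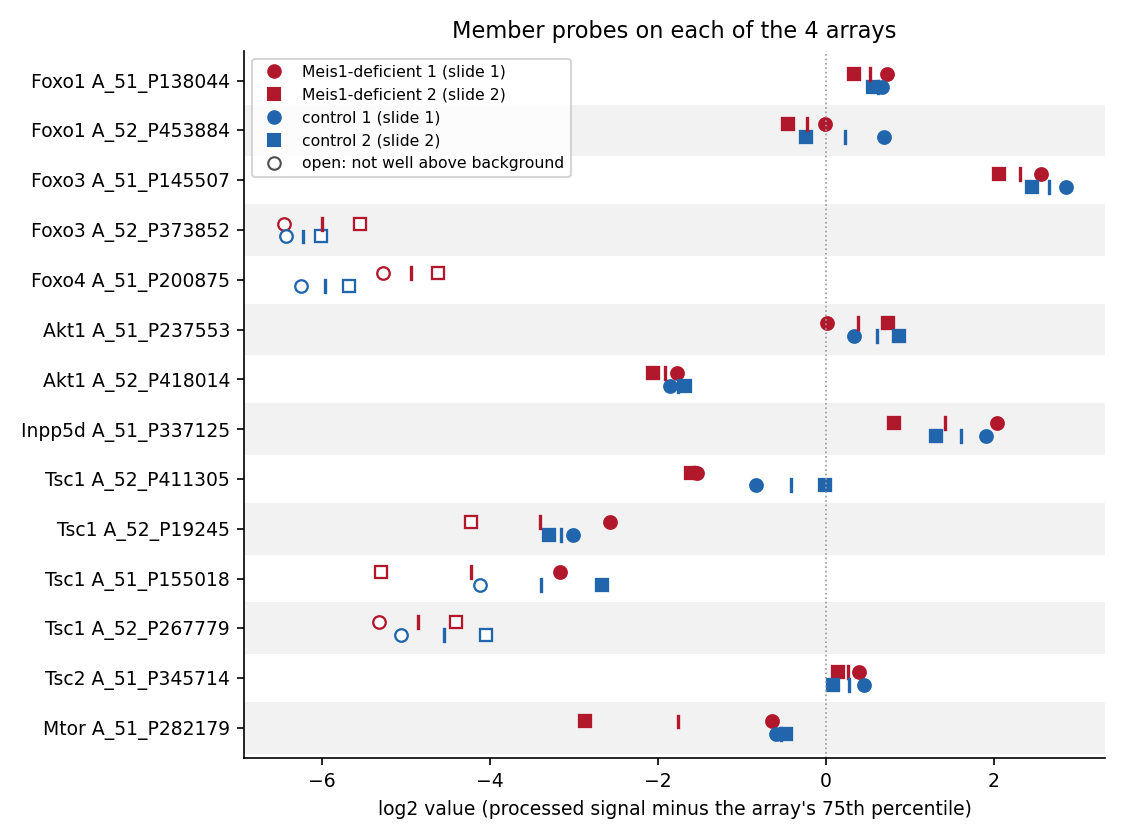
Log2 value of each of the 14 member probes (x axis, signal relative to the 75th percentile of the array) in the 2 Meis1-deficient pools (red) and the 2 control pools (blue). Circles are slide 1, squares slide 2, short vertical lines are genotype means, and open symbols were not well above background. The genotypes separate at Tsc1 A_52_P411305, and a single Meis1-deficient array stands apart at Mtor A_51_P282179. At Foxo4 A_51_P200875 all symbols are open.

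The 3 FoxO genes on the array were measured by 5 probes, of which 3 were above background. Foxo1, a forkhead factor that Akt holds out of the nucleus, had a pair of probes 3106 bases apart on chromosome 3 (mm9), A_51_P138044 at chr3:52150183-52150242 and A_52_P453884 at chr3:52153289-52153348, both on the plus strand. At A_51_P138044 the log2 values were 0.73 and 0.33 in the Meis1-deficient pools and 0.67 and 0.57 in the controls. The control values lay between the Meis1-deficient values. The difference was -0.09 (SE 0.43, n = 2 pools per genotype, limma adjusted p = 0.991). Its 95% interval ran from -1.14 to 0.97, that is from 2.20-fold lower to 1.96-fold higher in the Meis1-deficient cells.

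At the second Foxo1 probe, A_52_P453884, the Meis1-deficient values were -0.01 and -0.45 and the control values 0.69 and -0.24. The genotypes overlapped, and the highest value belonged to the control pool on slide 1. The difference was -0.45 (SE 0.51, 95% interval -1.69 to 0.79, limma adjusted p = 0.983), made up of -0.70 on slide 1 and -0.20 on slide 2. Both probes were higher on slide 1 than on slide 2 in each genotype.

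Foxo3, the family member best known for maintaining the stem cell pool, was read at A_51_P145507 (chr10:41905752-41905811, minus strand). Its log2 values were 2.55 and 2.05 in the Meis1-deficient pools and 2.85 and 2.46 in the controls. The Meis1-deficient pool was the lower one on each slide, by -0.30 on slide 1 and -0.40 on slide 2, although the genotypes overlapped. The difference of -0.35 (SE 0.46, 95% interval -1.46 to 0.76) had a limma adjusted p of 0.983. The Foxo3 difference lay below 0 under all 14 processing alternatives, between -0.60 and -0.10. Those that changed only the test or the filter could not move it. The second Foxo3 probe, A_52_P373852, lies 5205 bases away and was designed on a cDNA clone. It was not well above background on any array. The same held for the single Foxo4 probe, A_51_P200875 (chrX:98454216-98454275), whose log2 values ran from -6.25 to -4.62. Foxo4, the X-linked member of the family, was therefore not compared.

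Akt1, the kinase that links PI3K to both FoxO and TSC, was read by A_51_P237553 (chr12:113892079-113892138, minus strand), printed in 10 spots per array. The log2 values were 0.02 and 0.74 in the Meis1-deficient pools and 0.33 and 0.88 in the controls. The SD between the 10 spots of an array, which measures spot noise alone, was 0.06 to 0.08. Both genotypes were higher on slide 2, by 0.72 in the Meis1-deficient pools and 0.54 in the controls, and on each slide the Meis1-deficient pool was the lower, by -0.32 and -0.14. The genotype difference was -0.23 (SE 0.49, 95% interval -1.42 to 0.97, limma adjusted p = 0.983).

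The second Akt1 probe, A_52_P418014, matches bases spread over 9267 bases of the genome (chr12:113900509-113909775), so its 60 bases cross an intron and read spliced RNA. Its values were -1.78 and -2.05 in the Meis1-deficient pools and -1.85 and -1.68 in the controls, and they overlapped. The difference was -0.15 (SE 0.43, 95% interval -1.19 to 0.89, limma adjusted p = 0.986).

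Inpp5d (SHIP-1), the blood-cell phosphatase that removes the 5-phosphate from the PI3K product and so opposes Akt recruitment, was read at A_51_P337125 (chr1:89616958-89617017, plus strand). The log2 values were 2.03 and 0.81 in the Meis1-deficient pools and 1.91 and 1.31 in the controls. Both controls lay between the Meis1-deficient values, and slide 1 was higher in each genotype. The difference was -0.19 (SE 0.57, 95% interval -1.58 to 1.19, limma adjusted p = 0.987). Of 8 markers of granulocytes and monocytes, cells that also express Inpp5d, 7 were higher on slide 1 in both genotypes too. The other, Elane, was lower in the Meis1-deficient pools (-2.56 and -2.30 against -0.87 and -0.84, difference -1.57, SE 0.42) and met the criteria. Over the 6 tested markers of this list 4 were lower and 2 higher in the Meis1-deficient cells, with a median of -0.20, and Mpo (0.56) and Itgam (0.28) were the higher ones. Slide 1 had all 8 of them well above background in each genotype, and slide 2 had 5 (Meis1-deficient) and 6 (control). Their summed signal, in units of the 75th percentile of the array, was 159 and 171 on slide 1 and 88.3 and 52.1 on slide 2. LSK cells are negative for lineage markers, and the paper's set of these includes markers of granulocytes and monocytes. The part of such cells in the Inpp5d values was not tested.

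Tsc1, which encodes hamartin, the partner that stabilises tuberin, had 4 probes on the plus strand of chromosome 2 (mm9), of which 2 were tested. The first 30 of the 60 bases of each probe, read 5′ to 3′, are given because each reads another stretch of the locus.
A_52_P411305 (chr2:28529048-28529107): tcttatgtgtactttgctcatatgttcttc
A_52_P267779 (chr2:28542202-28542261): gattccttggtaggacataatgaagaggct
A_51_P155018 (chr2:28542631-28542690): tcagacaatgtggggcagctccacatcatg
A_52_P19245 (chr2:28545982-28546041): gcagtagctacaacaaactgcatcctaacc

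A_52_P411305 lies 13154 to 16934 bases upstream of the other 3 and was designed on a cDNA clone, whereas the other 3 were designed on the RefSeq transcript. No exon annotation of mm9 was used here, so whether A_52_P411305 reads an exon or an intron of Tsc1 was not determined. Its log2 values were -1.54 and -1.60 in the Meis1-deficient pools and -0.83 and -0.01 in the controls. The genotypes did not overlap, and the Meis1-deficient pool was lower on both slides, by -0.71 on slide 1 and -1.59 on slide 2. The difference was -1.15 (SE 0.48, 95% interval -2.31 to 0.01), or 2.22-fold lower, with an unadjusted limma p of 0.0519 and an adjusted p of 0.983. With the slide as a block the unadjusted p was 0.0415 and the limma adjusted p 0.784. It was then the 1 of 10 member probes with an unadjusted p under 0.05, where 6.07% of all tested probes had one. With normexp background correction the difference was -0.48. The study listed this probe from these same arrays, so its direction here is not independent evidence.

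The 3 Tsc1 probes on the RefSeq transcript were dim. A_52_P19245 had values of -2.57 and -4.23 in the Meis1-deficient pools and -3.01 and -3.30 in the controls, and the lowest of them was not well above background. The Meis1-deficient pool was higher on slide 1 (0.44) and lower on slide 2 (-0.93), with a difference of -0.25 (SE 0.63, 95% interval -1.79 to 1.29, limma adjusted p = 0.984). A_51_P155018 was well above background on 2 arrays, 1 of each genotype, and A_52_P267779 on 0, so neither was tested.

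Tsc2, which encodes tuberin, the GTPase-activating subunit that switches off Rheb, was read at A_51_P345714 (chr17:24732882-24732924, minus strand). Its log2 values were 0.39 and 0.14 in the Meis1-deficient pools and 0.45 and 0.09 in the controls. This was the member probe with the smallest difference, -0.01 (SE 0.44, limma adjusted p = 0.998). The 95% interval, -1.06 to 1.05, still allowed a change of 2.09-fold down or 2.08-fold up. In the RefSeq annotation Tsc2 overlaps the protein-coding gene Pkd1, and Mtor overlaps Angptl7, an snRNA gene and a pseudogene. Akt1, Foxo3 and Inpp5d overlap noncoding RNA genes. Whether the probes read any of these was not determined.

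Mtor, the kinase at the centre of both mTOR complexes, was read by 1 probe, A_51_P282179 (chr4:147931250-147931309, plus strand), which begins with the 30 bases below, shown because the whole reading of the gene rests on it.
Mtor A_51_P282179: ctgagaaatacgggttttgacttaacttac

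The log2 values were -0.64 and -2.87 in the Meis1-deficient pools and -0.59 and -0.48 in the controls. A single array, the second Meis1-deficient one, stood apart from the other 3, which lay within a narrow range. That array was also the dimmest of the 4, and the part of its dimness in the Mtor value was not tested. The difference was -1.22 (SE 0.76, 95% interval -3.06 to 0.62, limma adjusted p = 0.983), made up of -0.05 on slide 1 and -2.39 on slide 2. With normexp background correction the difference was -0.37, and without the second Meis1-deficient array -0.11. Without the first it was -2.33 and met the criteria, with a limma adjusted p of 0.0478 that rested on 1 Meis1-deficient pool. In that fit 1705 probes were called lower and 510 higher over the array, against 132 and 30 with all 4 arrays.

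**Figure D2:**
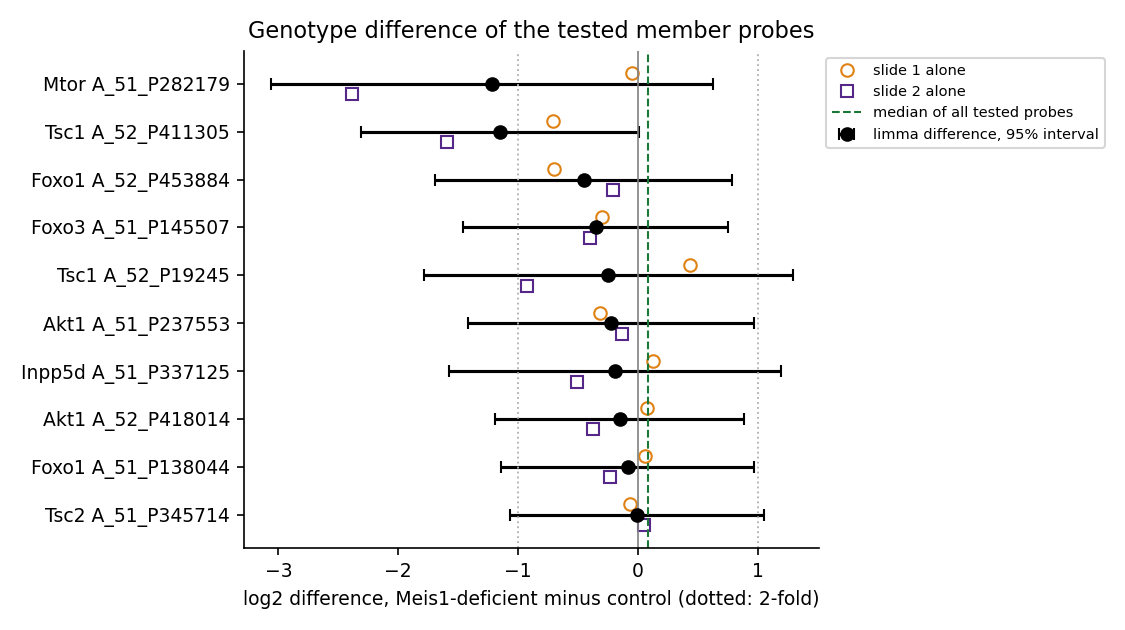
Difference of the 10 tested member probes (x axis, log2, Meis1-deficient minus control) from limma on all 4 arrays, with 95% intervals (black) and the difference on each slide alone (open symbols). The dashed green line is the median of all tested probes, 0.08, and dotted lines mark 2-fold. All 10 intervals reach past 0, and the slides lie far apart for Mtor.

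Leaving out 1 array at a time kept the direction of 4 of the 10 differences. These were Foxo3 A_51_P145507 (-0.60 to -0.10), Akt1 A_52_P418014 (-0.29 to -0.01), Tsc1 A_52_P411305 (-1.56 to -0.74) and Mtor (-2.33 to -0.11). The other 6 crossed 0, the widest being Tsc1 A_52_P19245, from -1.07 to 0.58. The median of the 10 moved from -0.24 to -0.64 without the first Meis1-deficient array and to -0.06 without the second.

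**Figure D3:**
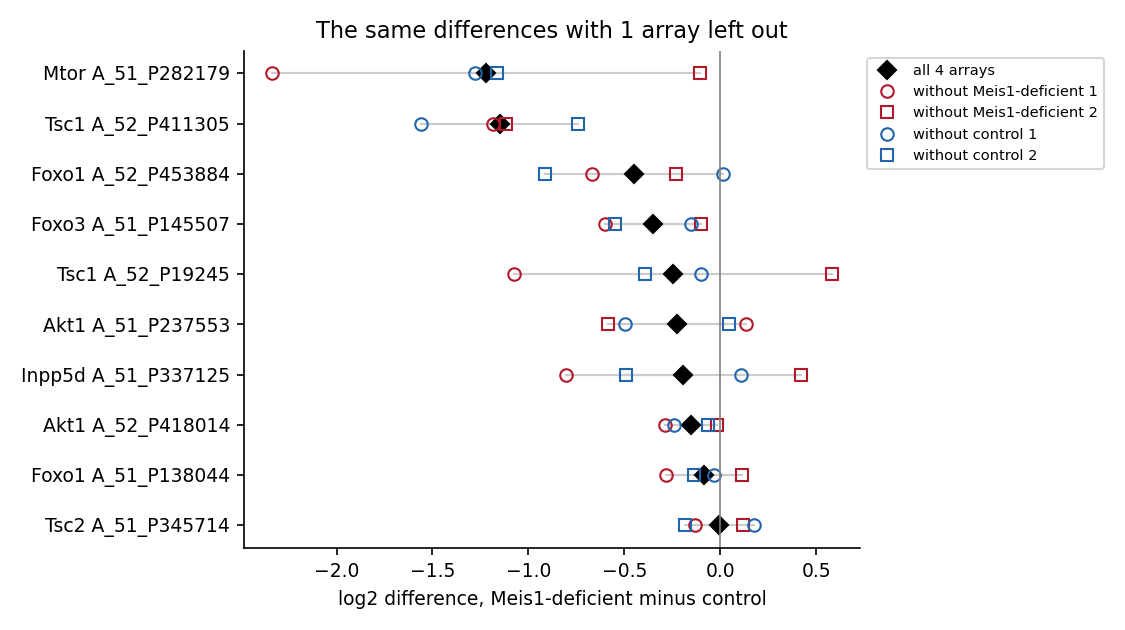
The same 10 differences (x axis, log2, Meis1-deficient minus control) with all 4 arrays (black diamonds) and with 1 array left out (open symbols, red for a Meis1-deficient and blue for a control array). The value for Mtor runs from -2.33 to -0.11 and that for Tsc1 A_52_P411305 from -1.56 to -0.74.

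Slides separated the member probes more than genotypes did, by the median. In 7 of the 10 probes the slides differed in the same direction in both genotypes, 6 of them higher on slide 1, and the median absolute difference between slides was 0.54, against 0.24 between genotypes. Over all tested probes these medians were 0.46 and 0.36, and the slides differed the same way in 61.4%, with 5798 probes higher on slide 1 and 7717 on slide 2. Sex-linked RNA also split by slide. Xist, the RNA that silences an X chromosome, had values of -3.75 and -5.78 on slide 1 and 5.31 and 5.32 on slide 2 at probe A_52_P300376. The Y-linked Eif2s3y had 3.24 and 3.36 on slide 1 and was not well above background on slide 2. The slide and the sex composition of the pools cannot be told apart, but each slide held 1 pool of each genotype.

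The promoter windows of the members were read for the core motif of MEIS proteins, TGACAG, and a FoxO motif, GTAAACA. Each was sought on both strands and separately from the other. The windows are those of RefSeq (GRCm38.p6), from 250 bases before to 50 after a start site, and 8 windows of 7 member genes were matched. The MEIS core stood in 1 of the 8, that of Foxo1, and in 19.2% of 32851 windows of all genes. The FoxO motif stood in 1 of the 8, 1 of the windows of Akt1, and in 3.65% of all windows. The 250 bases before the start are given for these windows, with the motif in capitals, since they hold the letters of the factor deleted here and of the family under study.
Foxo1, plus strand, GRCm38.p6 chr3:52268087-52268336: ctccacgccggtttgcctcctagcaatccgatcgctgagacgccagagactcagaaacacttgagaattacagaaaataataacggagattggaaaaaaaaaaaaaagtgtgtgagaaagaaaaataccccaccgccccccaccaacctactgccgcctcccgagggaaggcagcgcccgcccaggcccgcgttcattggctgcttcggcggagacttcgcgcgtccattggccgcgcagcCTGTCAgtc
Akt1, minus strand, GRCm38.p6 chr12:112674885-112675134: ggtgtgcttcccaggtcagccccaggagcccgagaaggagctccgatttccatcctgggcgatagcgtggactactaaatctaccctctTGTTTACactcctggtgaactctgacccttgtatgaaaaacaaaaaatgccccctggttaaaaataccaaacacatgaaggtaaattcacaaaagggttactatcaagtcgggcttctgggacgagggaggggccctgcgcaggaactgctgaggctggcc

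The letters CTGTCA, the MEIS core on the other strand, end 3 bases before the Foxo1 start, and TGTTTAC ends 154 bases before the Akt1 start. A match is a description of these letters only, and neither gene met the criteria at any of its probes.

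The rest of the pathway was described with a list of 68 other genes in 8 roles, of which 65 were on the array and 62 had a tested probe, the brightest standing for the gene. None met the criteria (0 of 62, against 0.736% of all tested probes), and 31 were lower and 31 higher in the Meis1-deficient cells, with a median of 0.00, a split that moved to 23 and 39 when the array median was subtracted and to 35 and 27 with quantile normalization. An unadjusted p under 0.05 was reached by 1 of the 62, where 2.81% of all tested probes reached it. That gene was Il7r, a FoxO target that encodes the interleukin-7 receptor alpha chain, named here after its value was seen. Its values were -1.91 and -2.72 against -0.84 and -1.06, a difference of -1.36 (SE 0.48, limma adjusted p = 0.983). It was well above background on 3 arrays, and with normexp the difference was -0.23.

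**Figure D4:**
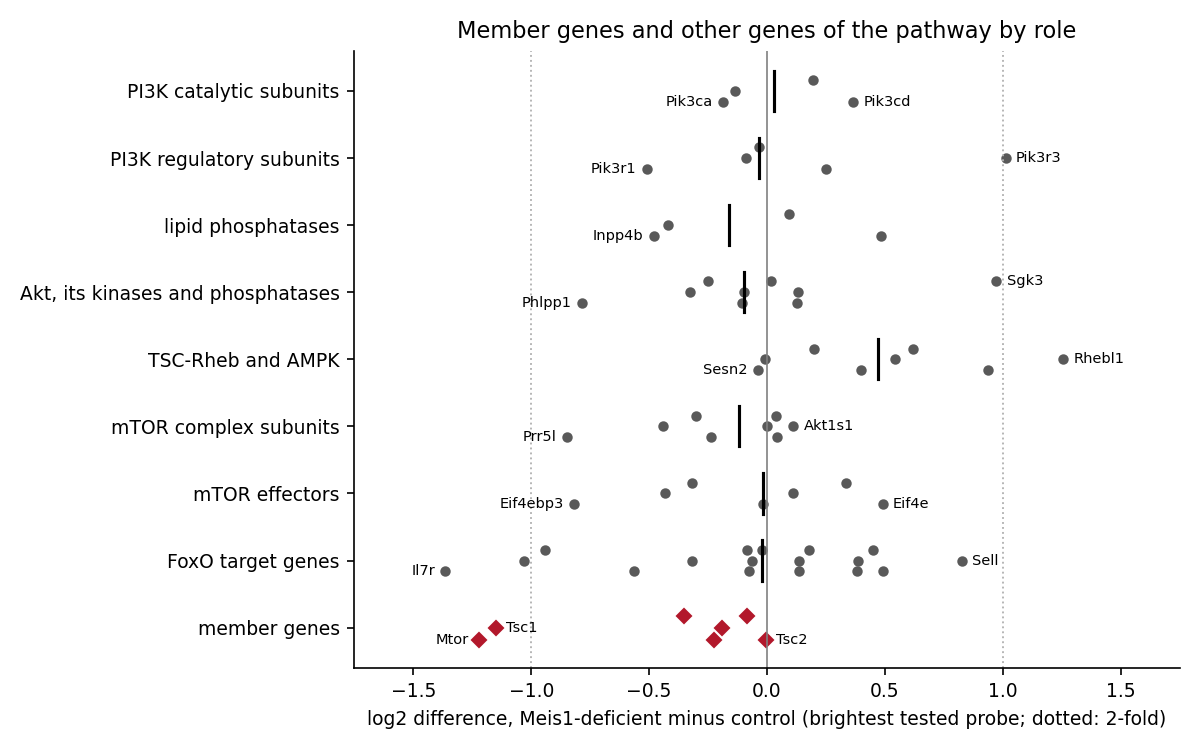
Differences of the 62 tested genes of the pathway list by role and of the member genes (red diamonds), each at its brightest tested probe (x axis, log2, Meis1-deficient minus control). Black lines are medians of a role, genes at the ends of a role are named in part, and dotted lines mark 2-fold. The TSC-Rheb and AMPK genes have the highest median of a role here, 0.47. Without the second Meis1-deficient array the lipid phosphatases have a higher one, 0.30 against 0.22. The member genes lie at or below 0, although Foxo1 and Tsc2 lie above it when the array median is subtracted.

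Upstream of Akt, the PI3K catalytic subunits split 2 lower and 2 higher with a median of 0.03 (4 and 0 without the second Meis1-deficient array), the largest differences being those of Pik3cd (0.37) and Pik3cb (0.19), which were -0.13 and -0.07 without the second Meis1-deficient array. Among the regulatory subunits, which hold the catalytic ones at the receptor, Pik3r1 was lower at all 4 of its tested probes, from -2.01 at A_51_P511236 to -0.51 at A_52_P235476, and none met the criteria (limma adjusted p = 0.983 for each). Without the second Meis1-deficient array these differences were -0.10 at A_51_P511236 and 0.03 at A_52_P235476, and -0.65 and -0.33 at the other probes. Pik3r3 was higher at A_52_P598827 (1.01, SE 0.90) and lower at A_52_P586443 (-1.97, SE 0.64, limma adjusted p = 0.983), so its probes opposed each other. Neither direction held throughout, since A_52_P598827 gave -0.07 without the second Meis1-deficient array and A_52_P586443 gave 0.07 with normexp. The study listed A_51_P511236, another Pik3r1 probe and A_52_P586443 from these arrays, so their direction is not independent evidence. Among the lipid phosphatases Inpp4b, which removes the 4-phosphate, had a difference of -0.48 (SE 0.51), or -0.13 with normexp and -0.08 without the first control array.

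Around Akt and TSC, the kinase Sgk3 had a difference of 0.97 (SE 0.51) and Phlpp1, a phosphatase of Akt, one of -0.78 (SE 0.67). Both came mostly from slide 2, with 0.24 on slide 1 and 1.70 on slide 2 for Sgk3 and 0.01 and -1.57 for Phlpp1. Without the second Meis1-deficient array Sgk3 gave 0.62 and Phlpp1 gave 0.13. In the TSC-Rheb and AMPK group 6 of 8 tested genes were higher, with a median of 0.47, where 12390 of all 22007 tested probes were higher, with a median of 0.08. With the array median subtracted 8 of 8 were higher, with a median of 0.56 against 0.17 over all tested probes. The median of the group was 0.25 with quantile normalization, 0.26 with normexp and 0.22 without the second Meis1-deficient array. Rhebl1, a Rheb-like GTPase, had values of -2.49 and -1.54 in the Meis1-deficient pools and -3.59 and -2.95 in the controls. The genotypes did not overlap, as in the higher direction for 16% of all tested probes, and the difference was 1.26 (SE 0.53, 95% interval -0.03 to 2.55, limma adjusted p = 0.983). It was 0.59 with normexp and 0.78 without the second Meis1-deficient array. Tbc1d7, the third subunit of the TSC complex, had -2.69 and -1.33 against -2.85 and -3.04, a difference of 0.94 (SE 0.57) that came mostly from slide 2 (1.71, against 0.16 on slide 1) and was 0.60 with normexp and 0.25 without the second Meis1-deficient array.

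Downstream, the mTOR complex subunits split 4 lower and 4 higher (6 and 2 with quantile normalization), with Prr5l, a partner of mTORC2, at -0.85 (SE 0.75) and Rptor, the defining subunit of mTORC1, at -0.44 (SE 0.52). Their slides disagreed in sign, with -2.09 on slide 1 and 0.39 on slide 2 for Prr5l and 0.31 and -1.19 for Rptor. Prr5l gave 0.25 without the first Meis1-deficient array, Rptor gave 0.03 without the second, and with normexp they gave 0.06 and 0.04. The mTOR effectors split 4 and 3 (1 and 6 without the second Meis1-deficient array), with Eif4ebp3, a repressor of the cap-binding protein, at -0.82 (SE 0.65) and Eif4e, the cap-binding protein itself, at 0.49 (SE 0.50). Both came from slide 2 (-1.67 and 1.02, against 0.03 and -0.04 on slide 1), and without the second Meis1-deficient array they were 0.06 and 0.01. Among 17 tested FoxO target genes 9 were lower and 8 higher, with a median of -0.02 (5 and 12 when the array median was subtracted, 11 and 6 with quantile normalization or normexp). Cdkn1a, an inhibitor of the cell cycle, had 1.89 and 0.12 in the Meis1-deficient pools and 3.12 and 0.95 in the controls, lower on both slides with a difference of -1.03 (SE 0.90), which was 0.06 without the first control array. The transcriptional repressor Bcl6 was also lower on both slides, with a difference of -0.94 (SE 0.78), or -0.53 with normexp and 0.08 without the second Meis1-deficient array. None of these met the criteria, and the limma adjusted p was 0.983 for each.

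Over 4 arrays, the genes closest to Foxo1 and Foxo3 were found by the distance between their values after each gene's mean was subtracted. Among 12258 genes the closest to Foxo1 A_51_P138044 were Hnrnpc, C87436 and D4Ertd22e, at distances of 0.03 to 0.04, and the closest to Foxo3 A_51_P145507 were Rabl2a, Dnttip2 and Dpf2, at 0.03 to 0.06. With only 4 arrays such closeness was common: 292 genes lay within 0.2 of Foxo1 and 113 within 0.2 of Foxo3.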

How the data were processed

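RNA (10 ng) from sorted LSK cells was hybridised to single-colour Agilent arrays. The authors deposited scanner intensity values made by Feature Extraction 9.5.3.1 per the file headers (9.1 per the labels), with local background subtracted, the spatial trend removed and low values replaced by surrogates. The deposited series table held the same intensities, rounded to within 0.5%.

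Spots of a probe were averaged after removal of controls and of spots with an outlier flag, and the 75th percentile of each array was subtracted from log2 intensities. Probes well above background on both arrays of either genotype were tested, so a probe could enter through a single genotype. The test was limma 3.58.1 in R 4.3.3, genotype against genotype, with Benjamini-Hochberg adjustment over 22007 probes. The exact permutation test of 2 against 2 cannot go below p = 0.333. Tests were run on simulated data first. The number of arrays limits the precision.

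The members and gene lists were chosen with earlier results of these data known. Named genes were all members, and in each role the 2 genes with the largest absolute difference among brightest probes well above background on all 4 arrays, beside those the study listed. Some items are not reported here. Same-numbered arrays lay on 1 slide and deviated together (r = 0.266 over 22007 probes), so the slide was used as a block in an alternative. Alternatives were other scalings, normexp background correction, the series table, other filters, outlier spots kept, an intensity trend, the methods' t-test on the log2 values and leaving out each array. Coordinates are mm9, as in the files. Markers of other cell types, as summed signals in the order Meis1-deficient 1 and 2 then control 1 and 2, were 11.7, 8.58, 18.3 and 7.44 for B lineage, 4.93, 25.7, 26.4 and 13.2 for plasma cells, 0.338, 0.498, 0.531 and 0.787 for T lineage, and 4.82, 1.88, 6.98 and 1.35 for erythroid cells, of whose markers Rhag met the criteria as higher in the Meis1-deficient cells (difference 1.72).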

Additional observations from a re-analysis of the deposited data

How the results depend on the processing

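No member probe met the criteria under the 10 alternatives that kept all 4 arrays, and no pathway gene did at its brightest tested probe. The slide as a replicate block (0 and 0) and the methods' t-test (0 and 0) were among these alternatives. With an array left out the member count ran from 0 to 1 and the pathway count from 0 to 4. The first Meis1-deficient array made the difference for Mtor (-2.33, limma adjusted p = 0.0478) and for the pathway genes Phlpp1, Il7r, Tbc1d7 and Eif4ebp3, and the second for Prr5l (1 pathway probe without it). Other probes of the pathway genes were not counted. Without the first Meis1-deficient array, Pik3r1 A_51_P511236 gave -3.92 and Pik3r3 A_52_P586443 gave -2.14. The causes were not tested. The median of the member probes lay between -0.64 and -0.057 with an array left out. It was -0.24 with the block, as without it, since the block could not move a difference here.

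Direction turned for 7 of the 10 member probes, and not for Foxo3 A_51_P145507, Tsc1 A_52_P411305 and Mtor under the alternatives run. Alternatives that changed only the test or the filter could not turn it. Foxo1 A_51_P138044 gave 0.00024 with the array median subtracted and ran from -0.28 to 0.11 with an array left out. Foxo1 A_52_P453884 ran from -0.92 to 0.015, Akt1 A_51_P237553 from -0.59 to 0.14 and Inpp5d from -0.81 to 0.42. Tsc1 A_52_P19245 gave 0.23 with quantile normalization and 0.28 with normexp, and ran from -1.07 to 0.58. Tsc2 gave 0.080 with the array median subtracted and ran from -0.19 to 0.18. Akt1 A_52_P418014 gave 0.22 with normexp alone.

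Over all tested probes, 132 were called lower and 30 higher. The counts were 307 and 130 with the block, 23 and 7 with the t-test, 85 and 16 with an intensity trend, 47 and 2 with normexp, 103 and 65 with quantile normalization, 43 and 10 with all 4 arrays well above background, and 194 and 100 with no filter. With an array left out they were 1705 and 510 or 262 and 34 without the first or second Meis1-deficient array, and 57 and 50 or 73 and 48 without the first or second control array. Without the filter the median of all probes rose by 0.15. Foxo4, 1 Foxo3 probe and 2 Tsc1 probes were too close to background to compare.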
